A study of Danio rerio with 12 samples.

Results

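The cytochrome P450 genes outside the best-known Cyp1 members were followed in whole zebrafish embryos through development and through a short exposure to a synthetic glucocorticoid. A gene belonged to the set when a probe's RefSeq accession led to a symbol that starts with cyp and a digit. Left out were cyp1a, cyp1b1, cyp1c1, cyp1c2, cyp51 and the steroid-synthesis families cyp11, cyp17, cyp19 and cyp21. The rule found 54 genes with 109 probes, of 12858 named genes and 43603 probes on the array, and no expression value entered it. It kept cyp1d1, which is a Cyp1 gene by its name. The set itself was chosen with earlier results of these data known. Of the 54 genes, 52 were bright enough to test; cyp2p7 was well above background on 0 arrays and cyp39a1, an oxysterol hydroxylase in mammals, on at most 1 array of its 12. A further 20 family symbols of the reference table, such as cyp27b1, cyp2r1 and cyp7b1, had no probe that could be named and were not analysed here.

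All embryos were wild type of the AB strain. They were 24 or 72 hours post fertilisation (hpf) and spent 3 h in 0.1% DMSO, the control, or in 25 µM beclomethasone, a glucocorticoid drug that activates the glucocorticoid receptor. The design has 4 groups of 3 samples, each sample on its own one-colour array. The labels call the experiments triplicate and name no clutch, so p-values measure only the spread between these samples.

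Cytochrome P450 enzymes carry a haem group and insert oxygen into fat-soluble molecules. Some members act on a single signal: the Cyp26 enzymes clear retinoic acid, and Cyp24a1 inactivates the vitamin D hormone. Cyp7, Cyp8b, Cyp46 and some Cyp27 enzymes turn cholesterol into bile acids and oxysterols. The large Cyp2, Cyp3 and Cyp4 families oxidise drugs, steroids and fatty acids, mainly in liver and intestine, and several of them have multiplied into fish-specific copies that lie next to each other in the genome. In mammals, glucocorticoids and the pregnane X receptor are known to raise members of the Cyp2 and Cyp3 families.

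A level is given here as the percentage of the array's own 75th percentile of signal, and a difference as log2 with its standard error (SE). A gene was called when limma's adjusted p over all 25169 genes and unnamed probes was below 0.05. Between 31210 and 37401 spots were well above background on 11 arrays, against 16764 on 24 hpf DMSO replicate 3. That array also had the lowest correlation with its group (r across probes down to 0.931), and its lowest signal was 42.8 scanner units, against 2.36 to 3.89 on the others. From here on, above background means that the scanner software flagged a spot as well above background. Below background means that it did not, so such a reading can still exceed the background. Of the 52 genes, 17 were above background on all 12 arrays and 13 missed it only on that array. Cyp3c1, cyp3c3, cyp46a1.1, cyp46a1.2 and cyp2k16 are among the 13, so their levels from that array are readings below background. At 24 hpf 11 genes were above background on 0 of the 6 arrays, whereas 49 were above it on all 6 arrays at 72 hpf. The arrays lay on 3 slides: slide 1 held the 24 hpf DMSO arrays with 1 beclomethasone array, slide 3 the 72 hpf beclomethasone arrays with 1 DMSO array, and slide 2 the other 4.

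Directions follow the labels of the scanner files. The submitters' deposited log2 table gave the opposite direction for every called treatment effect on a P450 gene, because each of its 12 columns was closest to the array that shared its stage and number and had the other treatment (r 0.988 to 0.997, against 0.658 to 0.827 for its own label, across 14004 probes). By the scanner labels, 5 of 6 known receptor target genes rose with beclomethasone at each stage, and 0 fell. One of them, fkbp5, stood at 1.85, 1.94 and 75.5% in 24 hpf DMSO and at 358, 432 and 342% in beclomethasone, so 24 hpf DMSO replicate 3 was again apart from its group. Another, hsd11b2, stood at 26.3, 23.9 and 21.1% in DMSO and at 358, 372 and 352% in beclomethasone.

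From 24 to 72 hpf in DMSO, 22 of the 52 genes rose and 8 fell. That is 57.7% of them, against 65.8% of all genes and probes tested, of which 29.2% rose and 36.6% fell. The median difference of the 52 was a log2 of 1.02, while the median over all genes and probes was -0.10. In beclomethasone 28 rose and 8 fell (69.2%, against 67.5% of all, with 33.8% higher and 33.7% lower). In both treatments 21 genes were called higher and 7 lower, and 0 were called in opposite directions. Changes of at least 2-fold were called for 25 of the 52 genes in DMSO and 32 of the 52 in beclomethasone, against 34.0% and 35.4% of all genes and probes. Of the 52 genes, 19 were above background on 0 arrays in 24 hpf DMSO, and 11 on 0 arrays in 24 hpf beclomethasone. The median and the counts of rises therefore rest in part on readings below background. With only probes above background on all 12 arrays, 17 genes were left. Of these, 2 rose and 8 fell in DMSO, and 1 rose and 7 fell in beclomethasone. No slide held both stages of the same treatment, so each stage comparison is also a comparison between slides. With slide as a fixed term, 14 of the 52 genes were called higher and 6 lower in DMSO, and 18 higher and 4 lower in beclomethasone. These embryos were measured whole, so fewer cells of a type and less RNA per cell cannot be told apart.

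**Figure D1:**
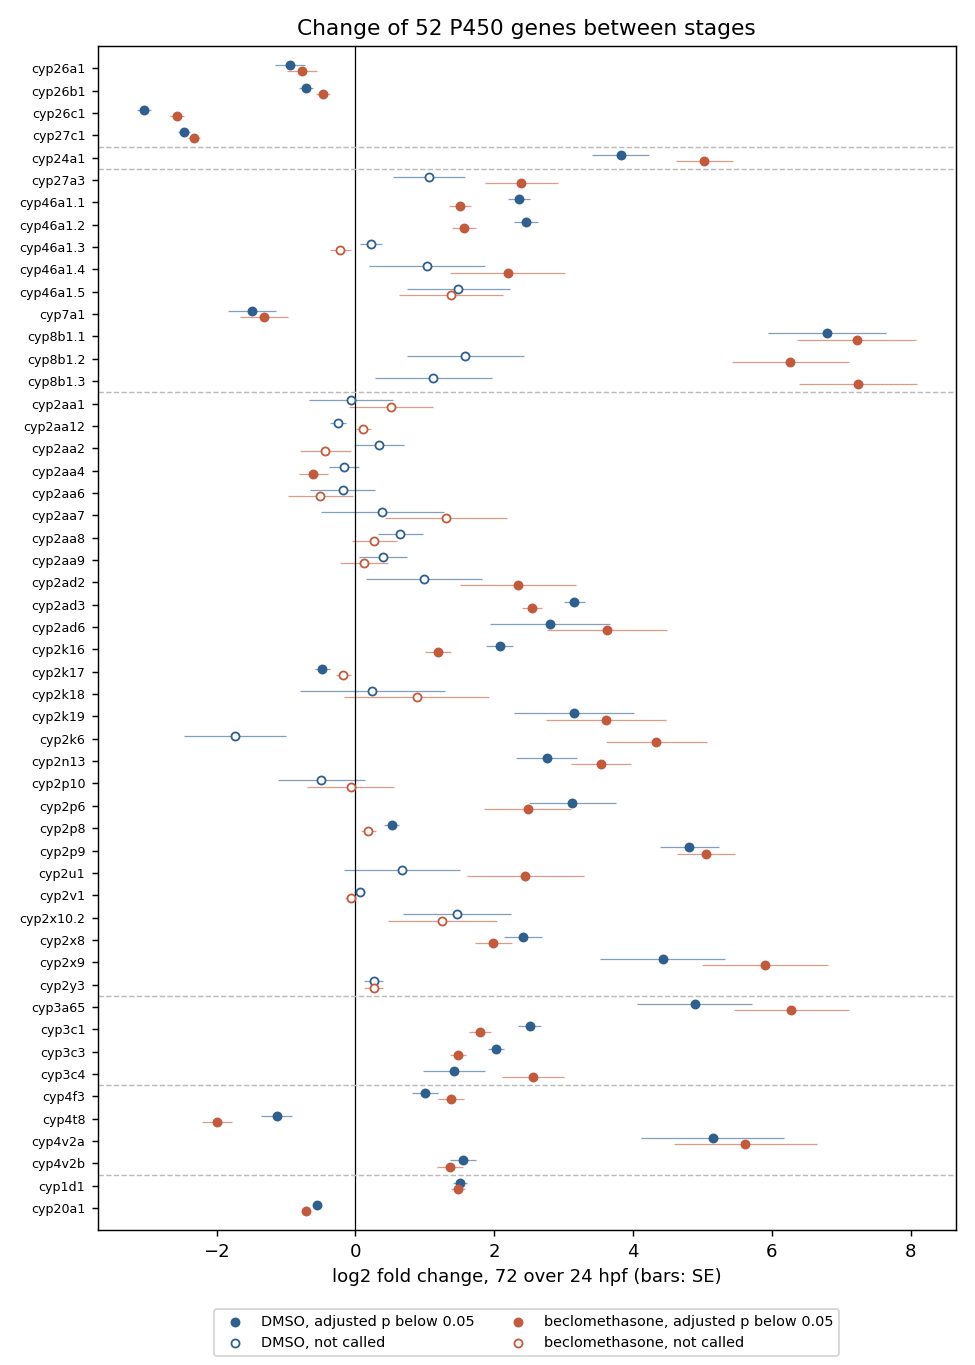
Log2 difference between 72 and 24 hpf for the 52 genes, in DMSO (blue) and in beclomethasone (orange), with the SE as bars; filled points have an adjusted p below 0.05 and dashed lines part the role groups. All 4 genes of the retinoic acid group at the top lie left of 0, and all 4 Cyp3 genes lie right of it. Genes below background at 24 hpf are drawn at their fitted value, which is no measured size.

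All 4 genes of the retinoic acid group fell between the stages, where 36.6% of all genes and probes fell in DMSO. The group holds the Cyp26 genes and also cyp27c1, which acts on vitamin A. Cyp26c1, which clears retinoic acid in the hindbrain, stood at 739.6, 755 and 798% in the 24 hpf DMSO samples and at 94.2, 91.2 and 92.1% at 72 hpf, and fell by 3.05 on the log2 scale (SE 0.10, adjusted p 8.5e-09). Cyp27c1, which turns vitamin A1 into vitamin A2 in the zebrafish eye, stood at 236, 222 and 220.4% and then at 42.3, 44.1 and 36.7%, and fell by 2.47 (SE 0.09). These groups lie far apart, with no overlap.

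Cyp26a1 stood at 226, 227 and 226% at 24 hpf and at 132, 138 and 88.8% at 72 hpf, and fell by 0.95 (SE 0.21). Cyp26b1 stood at 476, 434 and 474% and at 291, 288 and 267%, and fell by 0.71 (SE 0.10). The 4 genes fell under median centring and under quantile normalization as well.

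The opposite held for cyp24a1, the enzyme that inactivates vitamin D. Its level was 7.58, 4.11 and 7.52% at 24 hpf and 137, 43.4 and 112% at 72 hpf in DMSO, a log2 rise of 3.82 (SE 0.41, adjusted p 2.12e-05). The 3 samples at 72 hpf differ among themselves by a wide margin, yet all lie above those at 24 hpf.

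In the sterol and bile acid group 3 of 10 genes rose in DMSO and 1 fell. That is 40%, against 65.8% of all genes and probes, and the median log2 was 1.3. That median was -0.11 with another background correction (normexp). Cyp8b1.1, a copy of the sterol 12-hydroxylase that sets the mix of bile acids in mammals, was above background on 0 arrays at 24 hpf and stood at 152, 169 and 159% at 72 hpf, at least 28.1-fold higher. Cyp46a1.1 rose from 11.6, 13.1 and 8.94% to 64.5, 49.6 and 57.8% (log2 2.36, SE 0.16). Cyp46a1.2 rose from 10.3, 11.9 and 7.97% to 64.4, 45.6 and 55.6% (log2 2.46, SE 0.17). In mammals CYP46A1 is the cholesterol 24-hydroxylase of the brain.

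Cyp7a1, the rate-limiting enzyme of bile acid synthesis, has no settled direction. Its brightest probe stood at 19.6, 17.4 and 48.2% at 24 hpf and between 6.74 and 10.69% at 72 hpf, a log2 of -1.49, but its other probes gave 4.55 and -6.66, and all 3 passed the test. Besides cyp7a1, only cyp20a1 among the 34 genes with several tested probes had probes called in opposite directions in DMSO (-0.55 and 0.53).

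All 4 Cyp3 genes were called higher in DMSO, where 29.2% of all genes and probes were. Cyp3a65, the zebrafish counterpart of the drug-metabolising CYP3A genes of liver and gut, was above background on 0 arrays at 24 hpf and stood at 30.7, 92.6 and 42.8% at 72 hpf, at least 8.71-fold higher. Cyp3c1 stood at 22.5, 22.7 and 14.8% and then at 112, 117 and 106% (log2 2.51, SE 0.16), and cyp3c3 was called too (log2 2.03). The other probes of cyp3c3 gave 0.20, which was not called, and 0.61, which was. Cyp3c4 was above background on 0 DMSO arrays at 24 hpf and was at least 1.40-fold higher at 72 hpf, a call that was lost in 7 of 21 alternatives. Under median centring 3 of the 4 were called.

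Of 4 Cyp4 genes, 3 rose and 1 fell in DMSO, where 29.2% of all genes and probes rose and 36.6% fell. Cyp4v2a, a fatty acid hydroxylase whose human counterpart is mutated in a retinal dystrophy, was above background on 0 arrays at 24 hpf and stood at 52, 39.0 and 39.2% at 72 hpf, at least 7.56-fold higher. Cyp4t8, a fish Cyp4 gene, stood at 38.5, 50.8 and 48.2% and then at 15.9, 28.6 and 19.6%, and fell by 1.14 (SE 0.22).

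The 27 Cyp2 genes were split, with 10 called higher, 1 called lower and 16 not called in DMSO. That is 40.7% called, against 65.8% of all genes and probes. Cyp2p9, one of several fish relatives of the fatty acid epoxygenase CYP2J2, stood at 3.82, 2.27 and 8.19% at 24 hpf, where 1 array was above background, and at 141, 92.0 and 122% at 72 hpf (log2 4.81, SE 0.42). Cyp2x9 was below background at 24 hpf and stood at 16.9, 42.9 and 36.8% at 72 hpf, at least 5.25-fold higher. The lower call was cyp2k17, with a log2 of -0.47 (adjusted p 0.003); under median centring 4 Cyp2 genes were called lower.

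Runs of genes that lie side by side differed in how many of their genes were called. By their order in the RefSeq table, 36 of the genes lie in 9 runs of neighbouring P450 genes. In the run that holds the cyp2ad, cyp2n, cyp2p and cyp2v genes, 6 of 9 tested genes rose with stage in DMSO. In the 2 cyp2aa runs 0 of 8 tested genes were called higher or lower by their brightest probe. Of all genes and probes 65.8% were called and 29.2% rose. The drug gave 0 calls in the cyp2aa runs by the brightest probe too, with log2 values between -0.80 and 0.37. So few genes cannot tell this from the 19.2% at 24 hpf and 10.2% at 72 hpf of all genes and probes. For cyp2aa12, 3 other probes above background on all 12 arrays were called lower with stage (-0.59, -0.50 and -0.50), and 1 of them was called lower with the drug at 24 hpf (-0.35, adjusted p 0.041). Probe sequences were not used here, so whether a probe also binds a near-identical neighbour was not tested.

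Lists of organ markers were read at both stages as well. The 6 tested liver markers all rose between the stages in DMSO, from a summed level of 905 to 954% at 24 hpf to 7742 to 9876% at 72 hpf. The 6 intestine markers all rose as well, from 827 to 1033% to 3857 to 4509%, with fabp6, cdx1b and slc15a1b above background on 0 DMSO arrays at 24 hpf. Of 6 pronephros markers 4 rose and 1 fell (487 to 576%, then 758 to 800.3%), and of 5 neural markers 2 rose and 3 fell (3077 to 3190.3%, then 4395 to 4468%). Their part in the P450 results was not tested.

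Beclomethasone at 72 hpf raised 6 of the 52 genes and lowered 1. That is 13.5% of them, against 10.2% of all genes and probes, of which 4.80% rose and 5.44% fell. Of the 52 genes, 4 were called with a change of at least 2-fold, where 1.95% of all genes and probes were called at that size. Among them, cyp2k6 was below background in DMSO, so its size is only a bound. The median difference over the 52 was -0.08, against 0.00 over all.

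**Figure D2:**
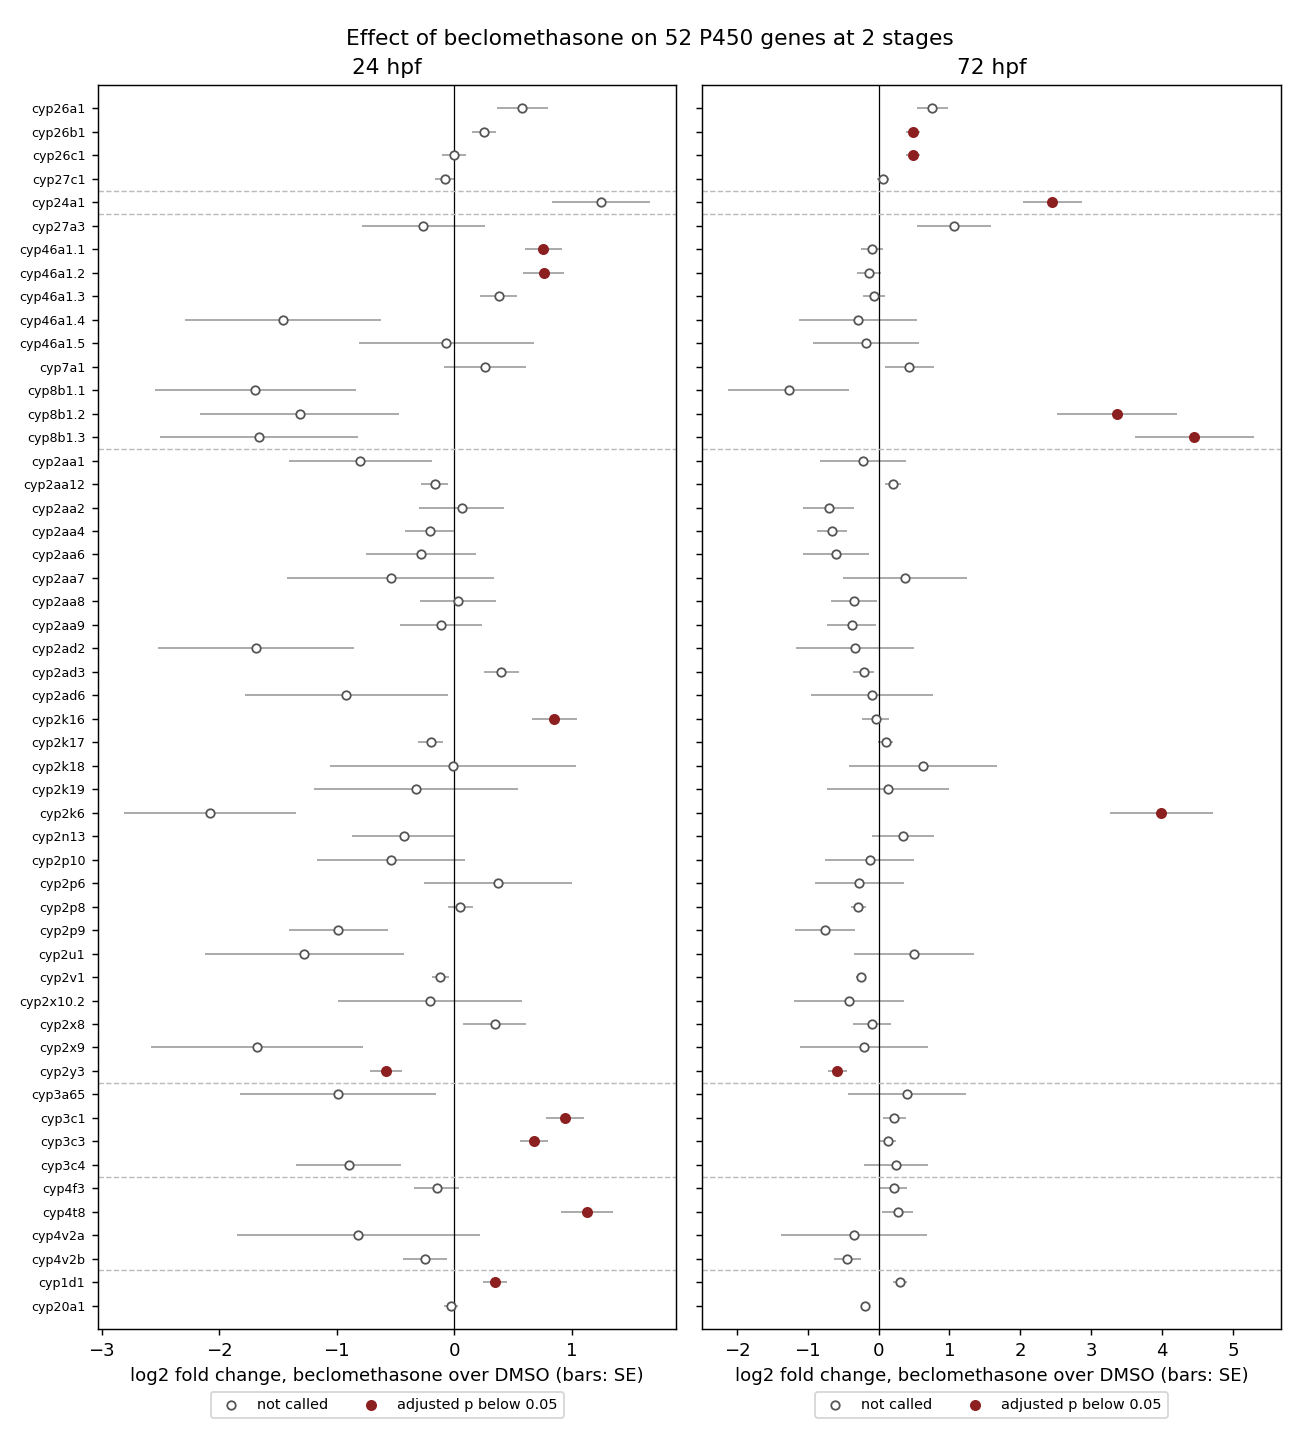
Log2 difference between beclomethasone and DMSO at 24 hpf (left) and 72 hpf (right) for the 52 genes, with the SE as bars; filled points have an adjusted p below 0.05 and dashed lines part the role groups. At 72 hpf cyp8b1.3, cyp2k6, cyp8b1.2 and cyp24a1 stand above 2, while at 24 hpf no called gene passes 1.12. The 2 panels have different horizontal ranges.

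Cyp24a1 was raised in all treated samples at this stage. Its level was 137, 43.4 and 112% in DMSO and 556, 377 and 519% in beclomethasone, a 5.48-fold difference (log2 2.45, SE 0.41, adjusted p 0.0049). Every treated sample lies well above every control, and DMSO replicate 2 is the lowest. A second probe, above background on 6 of the 12 arrays, gave 2.52 without passing the test (adjusted p 0.13).

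The 3 copies of the bile acid 12-hydroxylase, which lie next to each other, parted under the drug. Cyp8b1.3 stood at 2.42, 2.62 and 3.23% in DMSO and at 59.8, 61.3 and 59.5% in beclomethasone (log2 4.46, SE 0.84, adjusted p 0.0088). Cyp8b1.2 stood at 3.62, 3.53 and 3.60% and at 30.7, 38.7 and 42.7% (log2 3.37, SE 0.85, adjusted p 0.034). Cyp8b1.1 stood at 152, 169 and 159% and at 55.3, 68.9 and 76.9%.

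Treated and control samples did not overlap for 26 of the 52 genes at this stage, of which 7 were called. The share over all genes and probes was not counted. Among the 26 are these 3 genes, and cyp8b1.1 is lower in every treated sample. Its log2 of -1.27 was not called in the fit of all 12 arrays (SE 0.85, adjusted p 0.47), and it passed with the 72 hpf arrays alone (adjusted p 0.0032) and without 24 hpf DMSO replicate 3 (0.0034). The fit shares 1 spread per gene over both stages, and at 24 hpf that array read 8.34% for cyp8b1.1 where the other DMSO arrays read 0.614 and 0.581%, all below background. With the replicate number as a block within each stage, cyp8b1.2 was not called (adjusted p 0.051). Its call was lost in 13 of 22 alternatives, among them the mean of its probes and leaving out any array at 72 hpf, with an adjusted p of up to 0.34.

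**Figure D3:**
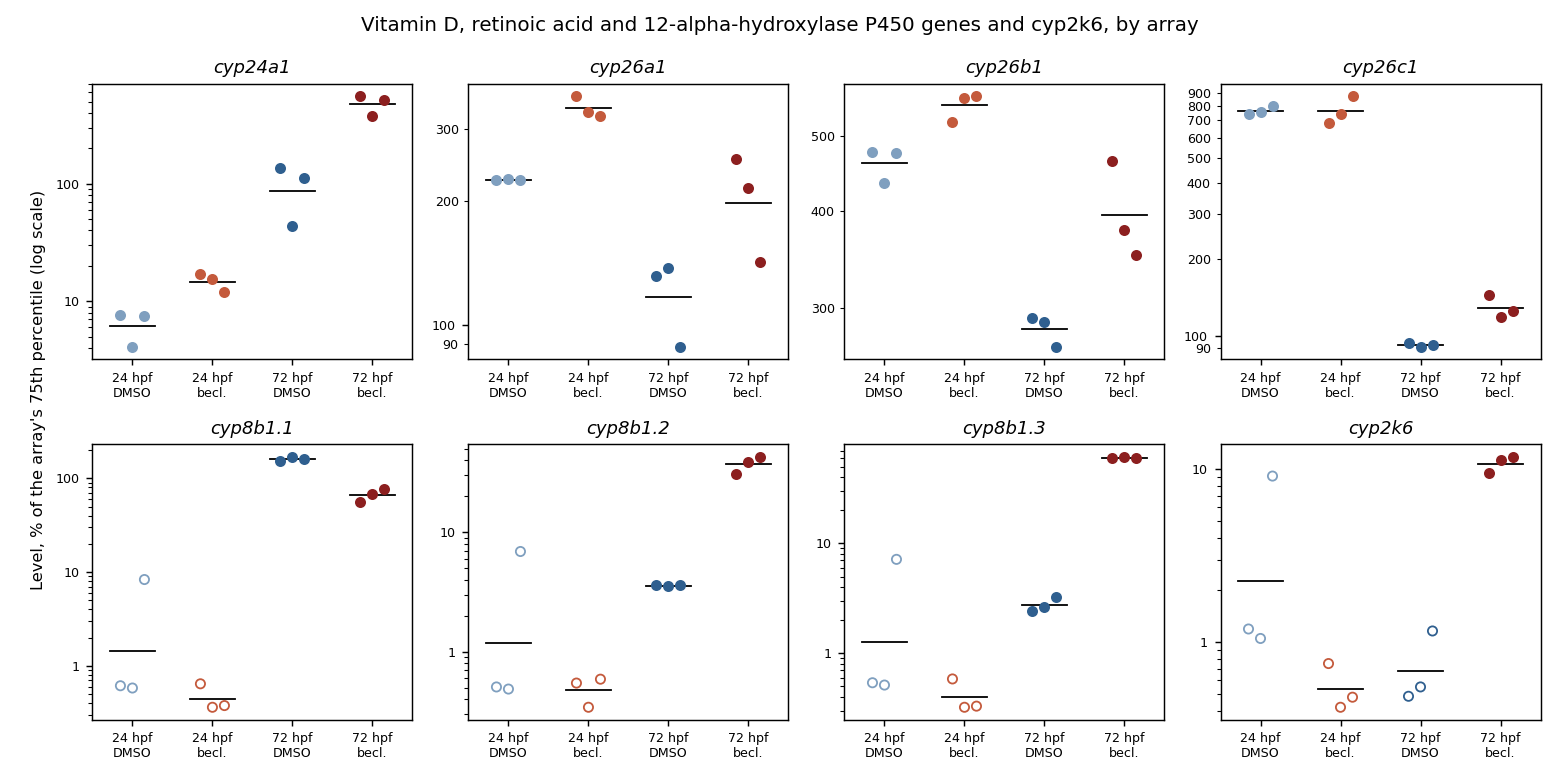
Level on each array, as a percentage of the array's 75th percentile on a log axis that differs by panel, for 8 genes in the 4 groups; bars are geometric means, and open points mark groups in which no array was above background. The treated samples at 72 hpf lie above the controls for 7 of the 8 genes and below them for cyp8b1.1. In the lower row, the open point that stands high in 24 hpf DMSO is replicate 3.

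Cyp2k6, a fish-specific Cyp2 gene, was above background only in beclomethasone at 72 hpf. It stood at 9.44, 11.2 and 11.8% there, and at 0.486, 0.55 and 1.16%, below background, in the DMSO samples. That makes it at least 8.02-fold higher. The gene entered the test only through the treated arrays where it is bright. Its adjusted p by limma (0.0074) sets them against readings below background, and so gives no separate support for the rise. Cyp2k6 lies in a run with cyp2k16, cyp2k17, cyp2k18 and cyp2k19, of which 0 were called at this stage, with log2 values between -0.04 and 0.62.

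Of the 3 Cyp26 genes, 2 rose by small steps at 72 hpf, where 4.80% of all genes and probes rose. Cyp26b1 stood at 291, 288 and 267% in DMSO and at 464, 378 and 350.3% in beclomethasone (log2 0.49, SE 0.10, adjusted p 0.015). Cyp26c1 stood at 94.2, 91.2 and 92.1% and at 145, 118 and 125% (log2 0.48, SE 0.10, adjusted p 0.015). Replicate 1 is the highest treated sample for both. The other 3 probes of cyp26b1 gave 0.33, 0.37 and 0.57, of which the last was called, and the second probe of cyp26c1 gave 0.72 and was called.

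Cyp26a1 stood at 132, 138 and 88.8% and at 253, 216 and 143%, a log2 of 0.76 that missed the threshold (SE 0.21, adjusted p 0.055). Its samples do not overlap, as for 26 of the 52 genes at this stage. With the replicate number as a block within each stage it passed (adjusted p 0.0089). A second probe gave 0.80 (adjusted p 0.036). Cyp27c1 did not pass (log2 0.06, SE 0.09).

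The lower call was cyp2y3, a fish Cyp2 gene. It stood at 492, 544 and 592% in DMSO and at 299, 403 and 392% in beclomethasone at 72 hpf, and fell by 0.58 (SE 0.14, adjusted p 0.025). Its second probe gave -0.63. The remaining 45 genes were not called at 72 hpf, all 4 Cyp3 genes (log2 0.13 to 0.41) and all 4 Cyp4 genes (-0.44 to 0.27) among them. In the sterol and bile acid group cyp27a3 had a log2 of 1.07 (SE 0.52, adjusted p 0.28) and cyp7a1 of 0.43 (SE 0.35), and the 5 Cyp46a1 genes lay between -0.30 and -0.06.

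The block within each stage also brought in cyp1d1 (log2 0.31, adjusted p 0.098 without and 0.043 with it) and cyp2aa6 (-0.61, adjusted p 0.55 without and 0.044 with it). Within slide 3, the only slide that holds both treatments at this stage, the 7 called genes kept their direction: cyp8b1.3 4.22, cyp8b1.2 3.36, cyp2k6 3.21, cyp24a1 2.10, cyp26b1 0.56, cyp26c1 0.49 and cyp2y3 -0.71 on the log2 scale, each against 1 DMSO array. With slide as a fixed term 0 of the 52 were called by limma (10 at an unadjusted p below 0.05), and the adjusted p of the 7 lay between 0.095 and 0.34.

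At 24 hpf beclomethasone raised 7 of the 52 genes and lowered 1. That is 15.4% of them, against 19.2% of all genes and probes, of which 9.05% rose and 10.1% fell. Of the 52 genes 8 were thus called, and 1 of the 52 (cyp4t8) with a change of at least 2-fold, where 2.29% of all genes and probes were called at that size. The median difference over the 52 was -0.16, beside -0.12 over all. That median over all was 0.00 after quantile normalization and -0.20 after median centring, and the 8 genes kept their direction under both. Of the 52 genes, 19 were above background on 0 DMSO arrays and 11 in neither treatment, so their median rests in part on such readings. After quantile normalization the group medians turned from -0.17 to 0.25 (sterol and bile acid), -0.11 to 0.60 (Cyp3) and -0.20 to 1.03 (Cyp4). That of the Cyp2 genes stayed negative (-0.21 and -0.12). For cyp3c1, cyp3c3, cyp46a1.1, cyp46a1.2 and cyp2k16 the reading of 24 hpf DMSO replicate 3 was below background. It is the last and lowest of their DMSO levels given below.

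In the Cyp3 family 2 of 4 genes rose, both in the cyp3c run, where 9.05% of all genes and probes rose. Cyp3c1 stood at 22.5, 22.7 and 14.8% in DMSO and at 41.6, 40.0 and 32.0% in beclomethasone (log2 0.94, SE 0.16, adjusted p 0.0054). Its other probes gave 0.68 and 0.64 and were called too. Cyp3c3 stood at 32.8, 28.8 and 24.8% and at 46.9, 47.5 and 42.8% (log2 0.67, SE 0.12, adjusted p 0.0058), while its other probes gave 0.16 and -0.17 and were not called.

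Of the 5 Cyp46a1 genes, 2 rose, each in a different run of neighbours, where 9.05% of all genes and probes rose. Cyp46a1.1 stood at 11.6, 13.1 and 8.94% in DMSO and at 18.8, 19.9 and 17.5% in beclomethasone (log2 0.76, SE 0.16, adjusted p 0.011). Cyp46a1.2 stood at 10.3, 11.9 and 7.97% and at 17.2, 17.8 and 15.5% (log2 0.76, SE 0.17, adjusted p 0.016). Both calls were lost with normexp background and with the mean of a gene's probes, with log2 values down to 0.24 and 0.23 and an adjusted p of up to 0.43 and 0.42. The other probes gave 1.05 (called) and -0.81 for cyp46a1.1 and 0.29 for cyp46a1.2. Near-identical copies can share signal, which was not tested.

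Cyp4t8 made the largest called step, from 38.5, 50.8 and 48.2% in DMSO to 112, 108 and 80.8% in beclomethasone (log2 1.12, SE 0.22, adjusted p 0.0086). Cyp2k16 stood at 13.2, 18.7 and 11.7% and at 28.5, 27.8 and 21.3% (log2 0.85, SE 0.19, adjusted p 0.015), but its other probe gave -0.63 (adjusted p 0.059). Cyp1d1 stood at 46.1, 39.6 and 37.0% and at 55.5, 51.5 and 48.2% (log2 0.34, SE 0.10, adjusted p 0.042). The cyp1d1 call was lost in 16 of 23 alternatives, among them median centring, quantile normalization and normexp, with an adjusted p of up to 0.13. The cyp2k16 call was lost in 7 of 22.

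Cyp2y3 fell here as it did at 72 hpf. It stood at 467, 468 and 420.2% in DMSO and at 348, 284 and 274% in beclomethasone, and fell by 0.59 (SE 0.14, adjusted p 0.017), with -0.74 for its second probe. By the brightest probe of each gene, cyp2y3 was the only one of the family called by the drug at both stages. Another probe of cyp26a1 (0.80 and 0.80) and another of cyp26b1 (0.31 and 0.57) were also called at both. The cyp2y3 call was lost in 5 of 23 alternatives at each stage, at 72 hpf with the replicate number as a block across stages among them.

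**Figure D4:**
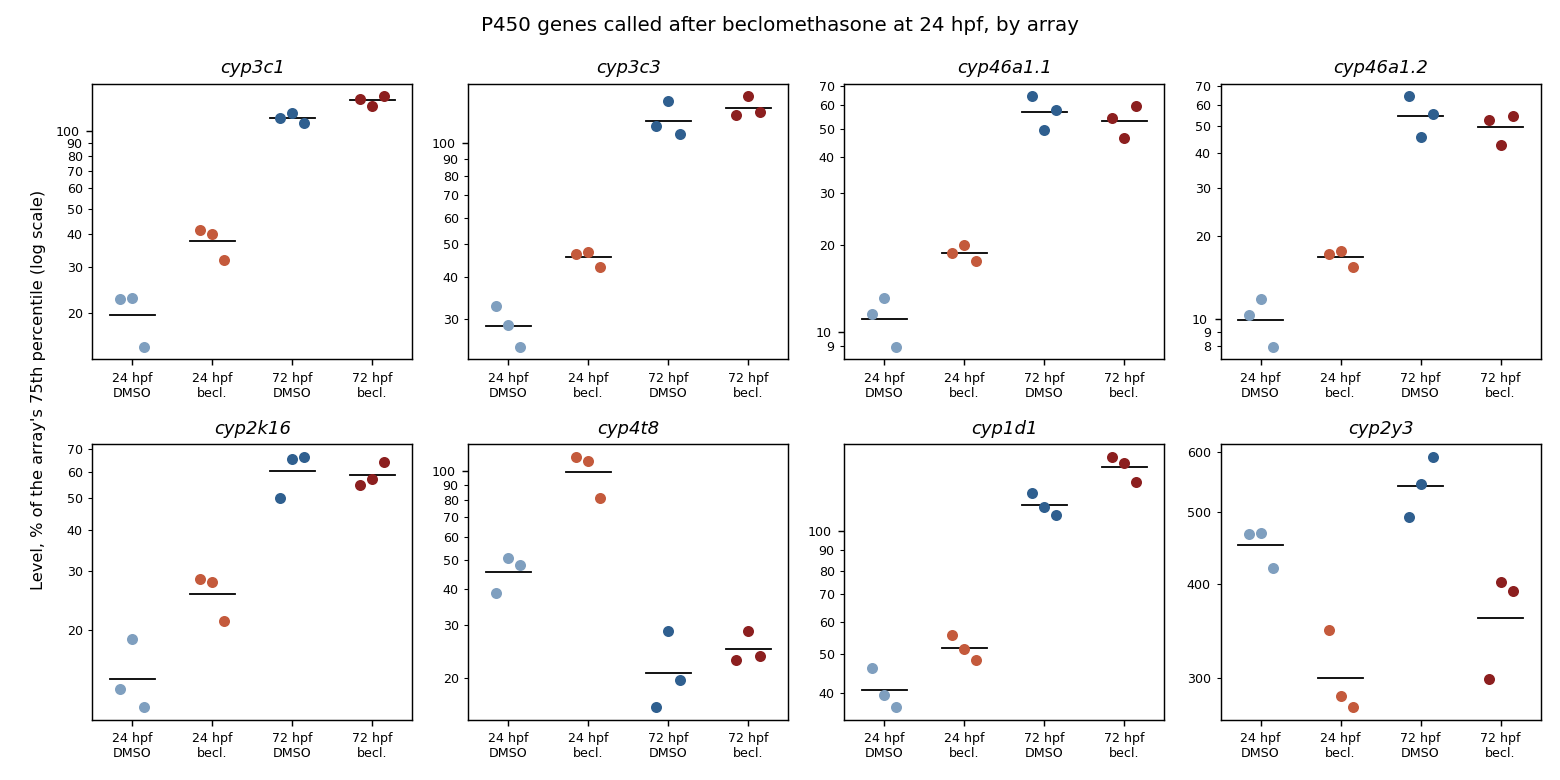
Level on each array, as a percentage of the array's 75th percentile on a log axis that differs by panel, for the 8 genes called at 24 hpf; bars are geometric means. The 24 hpf beclomethasone samples lie above the DMSO samples for 7 genes and below them for cyp2y3. At 72 hpf the treatments overlap for cyp3c3, cyp46a1.1, cyp46a1.2, cyp2k16 and cyp4t8.

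The genes that led at 72 hpf were dim or not called at 24 hpf. Cyp24a1 stood at 7.58, 4.11 and 7.52% in DMSO, where 2 arrays were above background, and at 17.1, 15.5 and 11.9% in beclomethasone (log2 1.25, SE 0.41, adjusted p 0.064). Its samples did not overlap, as for 16 of the 52 genes at this stage, of which 8 were called. Cyp26a1 stood at 226, 227 and 226% and at 361, 329.6 and 323% (log2 0.58, adjusted p 0.091), and its second probe passed (0.80, adjusted p 0.021). Cyp26b1 (0.25) was not called by its brightest probe, but 2 of its other 3 probes were (0.62 and 0.31), and cyp26c1 was not called. The brightest probes of cyp27c1 (-0.08), cyp2ad3 (0.40) and cyp20a1 (-0.03) were not called at 24 hpf either. Another probe of each was called higher (0.74, 0.77 and 0.74). The 3 cyp8b1 genes and cyp2k6 were above background on 0 arrays of either treatment at 24 hpf.

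At 24 hpf DMSO replicate 3 read between 6.62 and 9.11% for the genes that both other DMSO arrays placed under 3%, except cyp46a1.4 (14.9%) and cyp2u1 (35.8%). Without it 10 genes were called higher and 2 lower. Cyp2p6 (log2 1.31, adjusted p 0.0018), cyp46a1.5 (0.99), cyp7a1 (0.72), cyp2p10 (0.41) and cyp4f3 (-0.42) were then called, and cyp1d1 was not. Cyp2p6 and cyp46a1.5 read below background on every 24 hpf DMSO array. Their values and the limma p-values set treated samples against such readings, so they give no measured size. The count at 72 hpf moved as well, from 7 to 11, with cyp26a1, cyp27a3, cyp2aa4 and cyp8b1.1 called in addition. For cyp2p10 that array read 90.8%, where the other DMSO arrays read 12.4 and 12.7%.

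**Figure D5:**
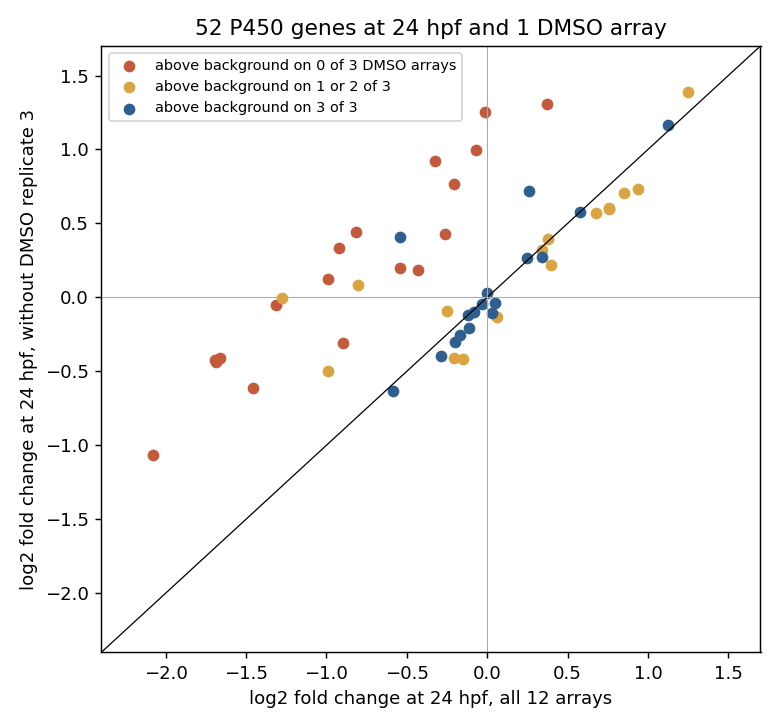
Log2 difference between beclomethasone and DMSO at 24 hpf for the 52 genes, with all 12 arrays (horizontal axis) and without 24 hpf DMSO replicate 3 (vertical axis); the diagonal marks equal values and the colour gives how many of the 3 DMSO arrays were above background. Genes above background on 0 of 3 DMSO arrays (orange) lie above the diagonal, for example cyp2k6 at -2.08 and -1.07. Of the genes above background on all 3 (blue), cyp2p10 and cyp7a1 lie farthest from it.

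On slide 1, which holds the 3 DMSO arrays and 1 beclomethasone array, the called genes kept their direction: cyp4t8 1.29, cyp3c1 1.08, cyp2k16 1.0, cyp46a1.2 0.79, cyp46a1.1 0.76, cyp3c3 0.71, cyp1d1 0.45 and cyp2y3 -0.37. With slide as a fixed term 0 of the 52 were called by limma at this stage too (10 at an unadjusted p below 0.05), and the adjusted p of the 8 lay between 0.062 and 0.25. The summed level of the 6 liver markers was 905 to 954% in DMSO and 1372 to 1631% in beclomethasone at 24 hpf, with 2 called higher. That of the 6 intestine markers was 827 to 1033% and 1184 to 1660.1%, with 1 called higher. The median log2 was 0.42 for liver and -0.29 for intestine. Mean levels rose for fabp2 (611 to 904%) and apoa4b.1 (280 to 488%), which carry the intestine sum. They were lower for vil1 (5.71 to 4.81%), fabp6 (2.90 to 0.68%), cdx1b (3.03 to 2.64%) and slc15a1b (7.44 to 0.95%). Each of these had its highest DMSO reading on replicate 3. Fabp6, cdx1b and slc15a1b were above background on 0 DMSO arrays. For fabp6 replicate 3 read 7.56% and the other DMSO arrays 0.59 and 0.55%. For slc15a1b it read 20.8% and the others 1.08 and 0.48%. These lower means and the intestine median thus rest in part on readings below background. Among the liver markers, the mean of fabp10a was lower (5.21 to 4.17%) and those of the others were higher. At 72 hpf 0 of either list were called, with summed levels of 7742 to 9876% and 7968 to 10299% for liver and 3857 to 4509% and 3201 to 4204% for intestine. The part of these markers in the P450 results was not tested.

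In the comparison of the drug's effect between the stages 2 of the 52 genes were called, 3.85% of them, against 6.30% of all genes and probes (2.56% higher, 3.74% lower, and 1.75% by at least 2-fold). The fit gave 6.12 for cyp8b1.3 (SE 1.19, adjusted p 0.019) and 6.07 for cyp2k6 (SE 1.03, adjusted p 0.011) on the log2 scale. Both were below background at 24 hpf in either treatment, so neither has a measured drug effect at that stage, and these sizes and p-values do not measure a difference between stages. Of each value, -1.66 and -2.08 at 24 hpf are subtracted readings below background, and without 24 hpf DMSO replicate 3 the values were 4.87 and 5.06. With the block within each stage cyp2k6 passed (adjusted p 0.047) and cyp8b1.3 did not (0.065). Cyp8b1.2 was at the edge (log2 4.68, adjusted p 0.051). The cyp3c1, cyp3c3, cyp46a1.1, cyp46a1.2 and cyp4t8 effects differed by -0.55 to -0.89 between stages and were not called. Of these, cyp46a1.1 (adjusted p 0.053) and cyp46a1.2 (0.061) passed with the block within each stage (0.048 and 0.042).

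Genes that work with the P450 enzymes were counted list by list. The lists were chosen with earlier results of these data known. Their shares beside those of all genes and probes are therefore descriptive and do not test for a surplus. Of 16 tested genes for electron supply and haem, 3 rose and 3 fell at 24 hpf, and 2 rose and 3 fell at 72 hpf. That is 37.5% and 31.2%, against 19.2% and 10.2% of all genes and probes. Hmox1a, which breaks down haem, rose at both stages, from 7.05, 7.12 and 7.35% to 16.8, 12.9 and 16.9% at 24 hpf (log2 1.11, SE 0.17) and from 19.96, 19.9 and 18.5% to 64.8, 39.8 and 57.0% at 72 hpf (log2 1.44). Pgrmc2, a haem-binding partner of P450 enzymes, fell by 0.57 at 24 hpf, and cyb5r3, a cytochrome b5 reductase, fell by 0.58 at 72 hpf.

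Of 17 nuclear receptors and partners that govern P450 genes, 1 rose and 3 fell at 24 hpf, and 2 rose and 0 fell at 72 hpf. That is 23.5% and 11.8%, near the 19.2% and 10.2% of all genes and probes. Nr1i2, the pregnane X receptor, stood at 6.20, 7.42 and 6.62% in DMSO and at 13.9, 13.3 and 13.0% in beclomethasone at 72 hpf (log2 0.996, SE 0.25, adjusted p 0.031). Its call was lost in 13 of 22 alternatives, among them median centring, quantile normalization and the replicate block within each stage, with an adjusted p of up to 0.64. Pparab, a fatty acid receptor, was called at 0.80 at 24 hpf and 0.85 at 72 hpf. These calls were lost in 7 and 9 of 22 alternatives, quantile normalization and the replicate block within each stage among both, and the 24 hpf value ranged from 0.16 to 2.03. Ncor1, a corepressor, fell by 0.31 at 24 hpf.

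Conjugation and efflux proteins act on P450 products. Of 35 tested out of a list of 52, 17 rose and 0 fell at 24 hpf (48.6%, against 19.2% of all), and 6 rose and 3 fell at 72 hpf (25.7%, against 10.2% of all). Of the 6 liver markers 2 and of the 6 intestine markers 1 were called higher at 24 hpf, and 0 of either at 72 hpf, and their part in these counts was not tested. The sulfotransferase sult2st1 stood at 258, 288 and 267% in 24 hpf DMSO and at 779, 765 and 688% in beclomethasone (log2 1.46, SE 0.07), and rose by 1.49 at 72 hpf. Its relative sult2st2 rose by 1.63 and 0.91, and the efflux pump abcc4 rose by 1.02 at 72 hpf and was not called at 24 hpf (-0.17).

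Of 19 tested other genes of the retinoid pathway, 3 rose and 0 fell at 24 hpf, and 0 rose and 3 fell at 72 hpf. That is 15.8% at each stage, against 19.2% and 10.2% of all genes and probes. Lrata, which stores retinol as an ester, fell by 0.99 at 72 hpf, aldh1a2, which makes retinoic acid, fell by 0.37, and rbp4, the plasma carrier of retinol, rose by 0.96 at 24 hpf as did the retinol dehydrogenase dhrs9 (0.71). Of 8 vitamin D genes, 1 rose and 1 fell at each stage (25%, against 19.2% and 10.2% of all). Pth1a, a parathyroid hormone gene, stood at 9.90, 9.19 and 8.39% in 24 hpf DMSO and at 3.97, 3.95 and 3.96% in beclomethasone (log2 -1.21), and at 72 hpf, where no treated array was above background, it was at least 1.53-fold lower. Pth1b rose by 0.87 at 24 hpf, and dhcr7, which turns the precursor of vitamin D into cholesterol, rose by 0.72 at 72 hpf.

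Of 12 tested bile acid and oxysterol genes other than P450 genes, 0 were called at either stage, against 19.2% and 10.2% of all genes and probes. So few genes cannot tell this from the share over all. Their median differences were 0.09 at 24 hpf and -0.07 at 72 hpf. Of 13 eicosanoid genes 3 rose and 1 fell at 24 hpf, and 2 rose and 0 fell at 72 hpf, which is 30.8% and 15.4%, against 19.2% and 10.2% of all. The prostaglandin synthesis gene ptgs1 rose by 0.93 and ptgdsb.1 by 0.91 at 24 hpf, and ptges3a rose by 1.15 and ptgs2b by 0.68 at 72 hpf. Of 6 pronephros markers 1 rose at each stage, and of 5 neural markers 0 were called at either, against the same 19.2% and 10.2% of all.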

How the data were processed

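RNA of whole zebrafish embryos was hybridised to 12 one-colour Agilent arrays. The intensity values of the scanner output were made by the authors with Agilent Feature Extraction 10.7.1.1, per the file headers, and were background-subtracted but not normalized between arrays. A log2 table was deposited as well; the submitters' processing notes name limma without its steps, and its treatment labels oppose those of the scanner files.

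Log2 intensity minus the array's 75th percentile over 43803 non-control spots was used. Spots that the scanner software flagged (14 to 79 an array) were dropped and spots of a probe averaged. A probe was tested when well above background on all 3 arrays of at least 1 group. A gene took its brightest tested probe, which applied to 6954 genes with several; 11940 genes and 13229 unnamed probes were tested. Gene names came from RefSeq accessions (25069 of 26981 such probes). Probe coordinates were not used because the builds differ, and RefSeq gene positions served only to order neighbouring genes. A model of 4 group means was fitted with limma 3.58.1 in R 4.3.3 (8 residual degrees of freedom, eBayes, Benjamini-Hochberg). Data were simulated for the 24 hpf comparison over 25169 features, with 100 changed at each size and an equal spread in all groups. There, 58% of 2-fold and 85% of 4-fold changes were recovered. The real comparison called 19.2% of features and held an array apart from its group, so these rates need not apply to it. At-least folds set the bright group's mean against the dim group's, with each dim array at the higher of its own reading and that array's lowest signal well above background.

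Same-numbered arrays deviated together at 72 hpf (r 0.53, 0.51 and 0.50) and not at 24 hpf (-0.09, 0.06 and -0.05), so the number was also used as a block within each stage. Slide, scaling, background, filters, probe choice and each array left out were the other alternatives. The number of arrays limits the precision. The members and gene lists were chosen with earlier results of these data known. Every member may be named; other genes named are the known receptor targets and up to 4 called genes per list and stage by adjusted p, of which the first 2 are given.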

Additional observations from a re-analysis of the deposited data

Results flagged for a closer look

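The effect of beclomethasone was called as different between the stages in the fit (72 minus 24 hpf, log2) for 2 P450 genes and 11 of the other genes named. With slide as a fixed block all 13 calls were lost. The values for cyp8b1.3 (6.12) and cyp2k6 (6.07) subtract readings below background in both treatments at 24 hpf, so they do not measure a difference between stages.

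The value was positive for the efflux pump abcc4 (1.19) and the prostaglandin genes ptges3a (1.13) and ptgs2b (0.81), of which ptgs2b lost its call in 11 of 22 alternatives. It was negative for lrata (-1.44), dhrs9 (-0.94) and aldh1a2 (-0.44) of the retinoid pathway, where aldh1a2 lost its call in 15 of 22 alternatives. It was negative for ptgs1 (-1.01) and ptgdsb.1 (-1.19) of prostaglandin synthesis. It was also negative for hsd11b2 (-0.80), which inactivates cortisol and rose at both stages, and 7 of 21 alternatives lost that call.

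Of the parathyroid hormone genes, pth1b (-0.82) lost its call in 17 of 21 alternatives. The value for pth1a (-1.22) lost its call in 8 of 21 alternatives and turned its sign in 1. No treated array at 72 hpf was above background for pth1a, and its bound there, at least 1.53-fold lower, is smaller than its fall at 24 hpf, so a lower effect at 72 hpf was not established.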

How the results depend on the processing

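The 24 hpf count of 8 called P450 genes became 13 with normexp background (5 higher, 8 lower), 4 with only probes above background on all 12 arrays, 0 with slide as a fixed block, and 3 with the 2 groups compared alone. The 72 hpf count of 7 became 14 with normexp background and 0 with slide as a fixed block. The stage counts of 30 in DMSO and 36 in beclomethasone became 10 (2 higher, 8 lower) and 8 (1 higher, 7 lower) with probes above background on all 12 arrays, which leaves 17 of the 52 genes. With slide as a fixed block they became 20 and 22, and 19 of the 30 DMSO calls were kept. The calls of cyp26a1, cyp4t8, cyp2x9 and cyp3c4 in DMSO were among those lost. The count of 2 for the difference between stages became 4 with median centring, 6 with quantile normalization, 9 with normexp, 1 with the all-array filter, 0 with slide as a fixed block (6 at an unadjusted p below 0.05), 10 with slide as a random block and 3 with the replicate block within each stage. The difference between stages for pth1a turned to 0.26 with normexp. The deposited table as labelled gave 9 (1 higher, 8 lower), 11 (3 higher, 8 lower) and 5 for the 2 treatment effects and their difference. Where not shown by the alternative's construction, the cause was not tested.

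Leaving out 1 array in turn gave 4 to 12 called genes at 24 hpf, 4 to 11 at 72 hpf, 29 to 41 and 32 to 39 for stage in DMSO and beclomethasone, and 1 to 6 for the difference. At 24 hpf the count was 4 without beclomethasone replicate 2 and 5 without beclomethasone replicate 1. At 72 hpf it was 4 without DMSO replicate 2 or beclomethasone replicate 1, and 11 without 24 hpf DMSO replicate 3. For the difference it was 6 without 24 hpf DMSO replicate 2 or 3, and 1 without 24 hpf beclomethasone replicate 2 or 72 hpf beclomethasone replicate 2 or 3.

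With the replicate number as a block across stages the counts were 12, 8, 32, 36 and 2, and with the replicate block within each stage, chosen after seeing the data, 9 at each stage. Normexp used the median spot signal, as no mean signal column was used, with an offset of 50. Genes below background at 24 hpf have fitted values without a measured size.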
